A study of Mus musculus with 2 samples.

Results

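Dlx1, Dlx2, Dlx5, Dlx6, Gsx1, Gsx2, Sp8 and Sp9 are 8 transcription factor genes of the subpallium, the ventral telencephalon in which GABAergic neurons are born. They were chosen by name, as the 8 matching rows among 32285 genes in the tables of counts, and were followed from subpallial progenitors to GABAergic neurons. Single-cell RNA was read from the boundary between cortex and septum of mouse brains at E16.5. A conditional knockout library carried the genotype Tcf4f/f;Emx1Cre (Tcf4 cKO). There Cre recombinase under Emx1 control removes floxed Tcf4, a basic helix-loop-helix factor gene, from dorsal telencephalic progenitors and the cells they give rise to. The other library was wild type (WT). The number of embryos pooled in each library is not given in the sources used here.

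The subpallial programme begins in ventricular zone progenitors, where the homeodomain factors Gsx1 and Gsx2 act upstream of the Dlx genes. Dlx1 and Dlx2 are activated as progenitors commit, and Dlx5 and Dlx6 follow in their progeny, where DLX proteins activate GABA synthesis genes and the tangential migration of interneurons. Sp8 and Sp9 are zinc finger factors of the same lineages, known for their part in the making of striatal neurons and of olfactory bulb and cortical interneurons. Emx1 is a gene of the pallium, so most cells of subpallial origin lie outside the domain of this Cre.

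After cell filters 10124 Tcf4 cKO and 8637 WT cells remained, with medians of 8148 and 9660 UMIs per cell (a UMI, or unique molecular identifier, tags a single captured RNA). With 1 library per genotype there is no test between genotypes, and every interval below is a 95% interval that covers counting error only. Of the barcodes kept before doublets were removed, 23 occurred in both libraries. Levels are in CPM, the UMIs of a gene scaled to a fixed total for all genes of a class. They compare 1 gene between classes, not genes with each other, since capture differs between transcripts. Fewer cells with a transcript and less of it per cell cannot be told apart in such sums. Tcf4 itself was at 629 CPM in Tcf4 cKO and 725 CPM in WT subpallial progenitors, and at 1802 and 2699 CPM in glutamatergic neurons. Reads at the transcript's 3′ end need not fall in the deleted part, so these levels do not check the deletion.

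Clusters were named from marker genes, with the 8 members and their antisense partners kept out of the genes used for clustering, and each name below stands for cells that are like that type. Subpallial progenitors were 562 Tcf4 cKO and 577 WT cells in clusters 12 and 20. Cluster 12 was led by Gsx2 and the cell cycle genes Rrm2 and Pclaf, and cluster 20 by Gsx1, D030055H07Rik and the cell cycle inhibitor gene Cdkn1c. GABAergic neurons were 2393 Tcf4 cKO and 2020 WT cells in 9 clusters. Gad2, a GABA synthesis gene, was at 335 CPM in Tcf4 cKO and 356 CPM in WT GABAergic neurons.

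Positions of the members in mm10 are from the GENCODE vM21 annotation. Dlx1 (ENSMUSG00000041911, chromosome 2, 71528113 to 71533981, plus strand) and Dlx2 (ENSMUSG00000023391, 71543408 to 71546754, minus strand) converge with 9426 bases between them. Dlx6 (ENSMUSG00000029754, chromosome 6, 6863334 to 6868568, plus strand) and Dlx5 (ENSMUSG00000029755, 6877805 to 6882085, minus strand) form the same kind of pair, 9236 bases apart. Gsx2 (ENSMUSG00000035946, 75075601 to 75077893) and Gsx1 (ENSMUSG00000053129, 147188696 to 147190947) lie on chromosome 5, and Sp8 (ENSMUSG00000048562, 118846329 to 118852576) on chromosome 12. Sp9 (ENSMUSG00000068859, 73271925 to 73284706) lies on chromosome 2, 1725170 bases from Dlx2. The antisense gene Dlx1as spans all of Dlx1, and Dlx6os1 (also called Evf2) spans all of Dlx6. Whether the counting used strand is not given in the sources used here, so reads of these overlapping pairs cannot be told apart.

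Promoter sequence was taken from RefSeq (GRCm38.p6), which had an entry for 6 of the 8 members. The 250 bases before the start are shown for Gsx1 and Gsx2, which stood far higher in progenitors, and for Dlx2 and Sp9, whose levels moved together across clusters. Capitals mark CANNTG, the E-box bound by basic helix-loop-helix factors such as TCF4. The windows are chr5:147188446-147188695 (Gsx1, plus strand), chr5:75075351-75075600 (Gsx2, plus strand), chr2:71546755-71547004 (Dlx2, minus strand) and chr2:73271676-73271925 (Sp9, plus strand).
Gsx1: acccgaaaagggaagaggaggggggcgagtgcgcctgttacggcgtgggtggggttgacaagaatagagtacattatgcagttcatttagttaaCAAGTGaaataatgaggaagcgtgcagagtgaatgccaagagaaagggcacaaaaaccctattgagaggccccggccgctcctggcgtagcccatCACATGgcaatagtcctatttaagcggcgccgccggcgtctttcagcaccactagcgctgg
Gsx2: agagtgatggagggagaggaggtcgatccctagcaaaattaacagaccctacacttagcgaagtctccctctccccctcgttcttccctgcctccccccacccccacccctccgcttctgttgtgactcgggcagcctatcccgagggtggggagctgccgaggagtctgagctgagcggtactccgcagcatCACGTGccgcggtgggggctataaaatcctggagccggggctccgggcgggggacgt
Dlx2: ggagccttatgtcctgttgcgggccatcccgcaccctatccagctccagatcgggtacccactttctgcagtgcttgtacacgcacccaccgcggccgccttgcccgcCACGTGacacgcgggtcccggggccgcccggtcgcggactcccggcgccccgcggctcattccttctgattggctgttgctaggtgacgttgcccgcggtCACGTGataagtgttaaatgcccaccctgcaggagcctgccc
Sp9: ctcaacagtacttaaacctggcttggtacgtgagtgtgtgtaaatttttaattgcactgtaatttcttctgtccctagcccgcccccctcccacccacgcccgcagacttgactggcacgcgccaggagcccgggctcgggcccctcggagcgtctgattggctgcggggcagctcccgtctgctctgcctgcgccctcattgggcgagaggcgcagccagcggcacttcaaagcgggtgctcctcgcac
Gsx1 held 2 E-boxes, 156 and 61 bases before the start, Dlx2 held 2, 142 and 42 bases before it, and Gsx2 held 1, 57 bases before it, whereas Sp9 held none. The motif reads the same on both strands and occurred in 66.2% of 32851 promoter windows of this length, so a match is a description only. TAATTA, a core recognised by homeodomain factors, was in none of these 4 windows on either strand and in 4.84% of all windows.

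In both libraries the members divided into genes that were lower and genes that were higher in GABAergic neurons than in progenitors. Gsx1 and Gsx2 were found mostly in progenitors. Gsx1 was at 4.59 CPM in Tcf4 cKO GABAergic neurons and 83.1 CPM in Tcf4 cKO progenitors, and at 5.07 and 85.9 CPM in the same classes of WT, so it was 18.1-fold higher (interval 14.3 to 23.1) and 16.9-fold higher (13.5 to 21.5) in progenitors. Gsx2 was at 4.43 and 67.2 CPM in Tcf4 cKO GABAergic neurons and progenitors and at 6.86 and 79.1 CPM in those of WT, 15.2-fold (11.9 to 19.6) and 11.5-fold (9.41 to 14.2) higher in progenitors.

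Dlx1 and Dlx2, the Dlx genes that switch on in progenitors, remained high in neurons but at lower levels. Dlx1 was at 441 CPM in Tcf4 cKO GABAergic neurons and 805 CPM in Tcf4 cKO progenitors, against 489 and 790 CPM in those of WT. Dlx2 was at 314 and 608 CPM in the Tcf4 cKO classes and at 331 and 550 CPM in the WT classes. The levels in progenitors were thus 1.82-fold (1.76 to 1.90) and 1.61-fold (1.56 to 1.67) those in neurons for Dlx1, and 1.94-fold (1.85 to 2.03) and 1.66-fold (1.59 to 1.74) for Dlx2, in Tcf4 cKO and WT.

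Dlx5, Dlx6, Sp8 and Sp9 went the other way and were higher in neurons in both libraries. Dlx5 was at 337 CPM in Tcf4 cKO GABAergic neurons and 195 CPM in Tcf4 cKO progenitors, a ratio of 1.73 (1.61 to 1.85), and at 347 and 168 CPM in those of WT, a ratio of 2.07 (1.93 to 2.21). Dlx6 was at 109 and 51.4 CPM in Tcf4 cKO, and at 126 and 59.8 CPM in WT, with ratios of 2.13 (1.86 to 2.43) and 2.11 (1.89 to 2.37). For the zinc finger genes the ratios were smaller. Sp9 was at 378 and 243 CPM in Tcf4 cKO and at 401 and 223 CPM in WT, with ratios of 1.55 (1.46 to 1.65) and 1.80 (1.70 to 1.91). Sp8 was at 68.2 and 41.3 CPM in Tcf4 cKO and at 74.4 and 44.1 CPM in WT, with ratios of 1.65 (1.42 to 1.93) and 1.69 (1.47 to 1.93).

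With a pseudocount of 5 CPM, 4 of the 8 members were past 1.5-fold higher in GABAergic neurons in both libraries, where 15.5% of 14183 genes with at least 20 UMIs were, and the other 4 were past 1.5-fold lower, where 12.6% were. Simply higher in neurons in both libraries were 4 of 8 members and 48.1% of all genes.

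**Figure D1:**
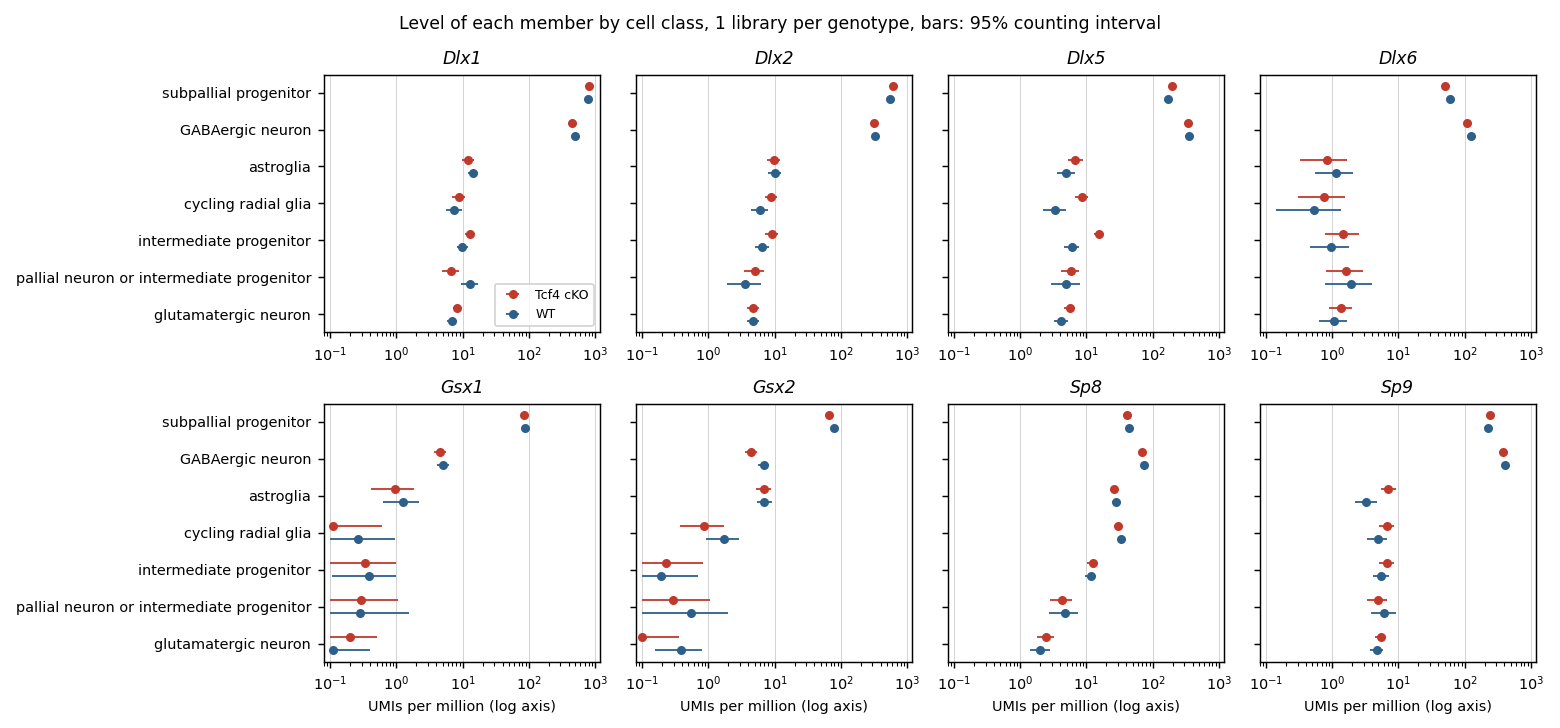
Level of each member in CPM (log axis) in 7 cell classes, Tcf4 cKO above WT, with 95% counting intervals cut at 0.1. Gsx1 stood at 83.1 and 85.9 in progenitors, and Sp8 kept a level in cycling radial glia, at 29.6 in Tcf4 cKO and 33.5 in WT.

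Levels were also followed along a score within the subpallial classes. Cells of the subpallial classes were ranked by a neuron score, made of neuron genes such as Dcx and Tubb3 set against progenitor genes such as Vim and Nes, and cut into 5 bins of about equal size. In the lowest bin 88.3% of Tcf4 cKO and 86.4% of WT cells were progenitors, in the second 14.8% of each, and in the bins above that under 1%. No member was part of the score. Each bin mixes clusters. With both libraries together, the neuron genes of the score ranged from 7876 CPM in cluster 5 to 19781 CPM in cluster 27 among GABAergic clusters. Stage and cluster make-up thus cannot be told apart in the bins.

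Gsx2 was the most confined to the lowest bin. It stood at 68.1, 15.8, 2.66, 1.14 and 2.21 CPM from the lowest to the highest bin in Tcf4 cKO, and at 85.4, 14.0, 5.00, 1.61 and 1.04 CPM in WT. Gsx1 reached into the second bin, at 67.7, 41.5, 2.88, 0.380 and 0.553 CPM in Tcf4 cKO and 63.0, 46.5, 1.74, 1.38 and 0.261 CPM in WT. Gad2 was at 116, 435, 334, 284 and 300.3 CPM in Tcf4 cKO and 108, 405, 348, 309 and 332 CPM in WT, so it was highest in the second bin, where Gsx1 was still found, and both Gsx genes were at 5.00 CPM or less from the third bin on.

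Dlx1 differed little between the first and second bins and then declined, at 792, 801, 471, 379 and 254 CPM in Tcf4 cKO and 777, 791, 492, 401 and 246 CPM in WT. Dlx2 did the same, at 600, 607, 331, 231 and 195 CPM in Tcf4 cKO and 553, 535, 345, 246 and 162 CPM in WT. Dlx5 was at its lowest in the first bin and at its highest in the second in both libraries, at 200, 415, 391, 323 and 247 CPM in Tcf4 cKO and at 177, 401, 368, 310 and 273 CPM in WT. When the cells were cut into 10 bins instead, Dlx1 was highest in bin 2, at 979 CPM in Tcf4 cKO and 1003 CPM in WT. Dlx2 was highest in the same bin, at 681 and 658 CPM. These levels lay above those of the lowest wider bin, so Dlx1 and Dlx2 were not level within it.

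Dlx6 was highest in a later bin than the other Dlx genes. It was at 51.8, 92.2, 135, 123 and 83.6 CPM in Tcf4 cKO and at 58.9, 98.7, 139, 154 and 111 CPM in WT. Sp9 was highest in the second bin in both libraries, at 290, 605, 427, 318 and 200 CPM in Tcf4 cKO and 267, 597, 414, 317 and 160 CPM in WT. Sp8 was also highest there, at 44.1, 83.7, 70.8, 75.2 and 45.5 CPM in Tcf4 cKO and 45.7, 94.5, 70.4, 92.4 and 29.7 CPM in WT. With each cell thinned to 3000 UMIs the highest bin of Dlx5 in WT was the third, that of Dlx6 in WT the fifth, that of Dlx2 in WT the second and that of Dlx1 in Tcf4 cKO the first. The highest bins of Sp8, Sp9, Gsx1 and Gsx2 were as above in both libraries.

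**Figure D2:**
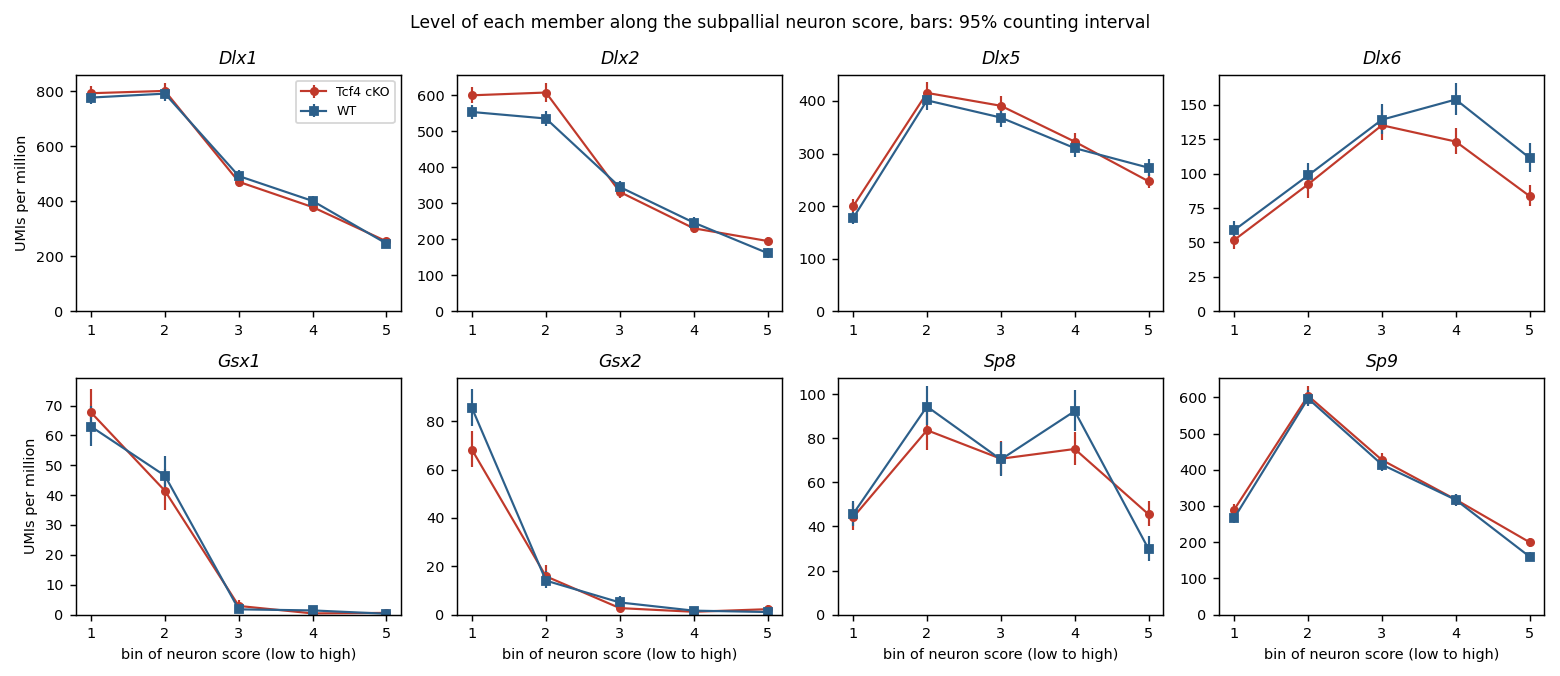
Level of each member in CPM in 5 bins of the neuron score, low to high, in Tcf4 cKO (circles) and WT (squares) cells of the subpallial classes, with 95% counting intervals. Gsx2 dropped after bin 1 and Gsx1 after bin 2, while Dlx6 reached its highest level in bin 3 in Tcf4 cKO, at 135, and in bin 4 in WT, at 154.

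The pair of progenitor clusters differed in which members they held. Gsx1 was at 188 CPM in Tcf4 cKO and 198 CPM in WT cells of cluster 20, against 26.9 and 24.0 CPM in cluster 12, so it was 6.97-fold (5.47 to 8.96) and 8.23-fold (6.54 to 10.4) higher in cluster 20. Gsx2 was shared more evenly, at 53.1 and 75.7 CPM in cluster 20 and 74.8 and 81.0 CPM in cluster 12, in Tcf4 cKO and WT. Cluster 20 also held Egfr and Olig2 among its 10 leading genes, the growth factor receptor gene of late progenitors and a factor gene of the oligodendrocyte lineage.

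Dlx5, Dlx6 and Sp9 were scarcer in cluster 20. Dlx5 was at 68.5 CPM in Tcf4 cKO and 57.1 CPM in WT there, against 263 and 230 CPM in cluster 12. Sp9 was at 69.1 and 65.2 CPM, against 337 and 310 CPM, 4.88-fold (4.03 to 5.96) and 4.76-fold (3.98 to 5.72) higher in cluster 12. Dlx1 differed far less, at 746 and 685 CPM in cluster 20 and 837 and 848 CPM in cluster 12. Dlx2 was at 485 and 427 CPM in cluster 20, against 674 and 618 CPM in cluster 12. The cluster with the higher Gsx1 thus had nearly as much Dlx1 as the other and far less Dlx5 and Sp9.

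Single cells were compared next. In progenitors thinned to 3000 UMIs, 18.5% (11.1 to 27.9) of Tcf4 cKO and 17.5% (11.1 to 25.8) of WT cells with a Gsx1 UMI also had an Sp9 UMI, against 34.9% (30.6 to 39.4) and 32.8% (28.6 to 37.3) of cells without Gsx1. By contrast Dlx5 and Sp9 were found together, since 67.2% of Tcf4 cKO and 61.5% of WT cells with a Dlx5 UMI had an Sp9 UMI, against 16.1% and 16.7% of those without. Dlx1 and Dlx2 were paired most often. Of cells with a Dlx1 UMI, 84.1% in Tcf4 cKO and 84.4% in WT had a Dlx2 UMI, against 30.6% and 38.3% of those without.

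Gsx1 and Gsx2 showed no such pairing. A Gsx2 UMI was found in 10.9% (5.34 to 19.1) of Tcf4 cKO and 20.2% (13.2 to 28.7) of WT cells with Gsx1, against 15.7% (12.6 to 19.4) and 17.9% (14.5 to 21.7) of cells without. Before thinning these shares were 24.5% (17.6 to 32.5) and 28.9% (22.3 to 36.3) with Gsx1, against 37.4% (32.7 to 42.2) and 45.3% (40.4 to 50.3) without. After thinning, no UMI of any Dlx member was found in 18.5% of Tcf4 cKO and 19.6% of WT progenitors, and before thinning in 12.8% and 14.2%. In glutamatergic neurons, which should lack the genes, a Dlx1 UMI was found in 2.13% of Tcf4 cKO and 1.97% of WT thinned cells, against 71.5% and 66.6% of progenitors. Before thinning these shares were 5.48% and 5.57%, against 78.8% and 77.6%, at median depths of 9113 and 11144 UMIs in glutamatergic neurons and 7956.5 and 9564 UMIs in progenitors. Microglia or macrophages, which should lack the genes as well, had Dlx1 at 39.6 CPM in Tcf4 cKO and 29.5 CPM in WT, from 23 and 19 UMIs in 55 and 52 cells. Of their UMIs of the Dlx members, 63.8% and 93.1% were in 5 and 4 cells.

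Among GABAergic clusters the levels of the members differed. Cluster 5, led by Dlx6os1, St18 and Sp9, had the highest level of Sp9 in both libraries, at 725 CPM in Tcf4 cKO and 745 CPM in WT. It also held Dlx1 at 823 and 853 CPM, Gsx1 at 21.7 and 22.2 CPM and Gsx2 at 15.9 and 20.8 CPM. In the other GABAergic clusters Gsx1 stood at 7.77 CPM or less in either library.

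Sp8 was highest in cluster 33, led by Npas1, Adarb2 and Nr2f2, which is a combination known from caudal interneurons, at 221 CPM in Tcf4 cKO and 231 CPM in WT. In the clusters led by Lhx8 and Lhx6 (cluster 6), Gbx1 (27) and Sst and Npy (28), Sp8 was between 1.55 and 7.43 CPM in Tcf4 cKO and between 2.91 and 11.2 CPM in WT. Sp9 remained at 337 and 225 CPM in cluster 6 and at 348 and 277 CPM in cluster 28, in Tcf4 cKO and WT, where Sp8 was low. Cluster 27 held less Sp9, with 139 UMIs in 159 Tcf4 cKO cells and 39 UMIs in 33 WT cells. Cluster 6 had 1088 UMIs in 502 and 463 UMIs in 267 cells.

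The Dlx genes also changed in proportion. In the cells of clusters 27 and 28 the UMIs of Dlx2 numbered 1.09 and 1.39 per Dlx1 UMI in Tcf4 cKO and 1.26 and 1.11 in WT. This ratio lay between 0.316 and 0.884 in the other 11 clusters of subpallial cells. The same clusters held Dlx1as at 60.1 and 103 CPM in Tcf4 cKO and 58.1 and 110 CPM in WT. Their Dlx1as UMIs numbered 0.428 and 0.335 per Dlx1 UMI in Tcf4 cKO and 0.526 and 0.301 in WT, against 0.088 at most in the other clusters. Since the strand setting is not given, these ratios cannot be told apart from reads of Dlx1 counted for its antisense gene, or the reverse.

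Dlx6os1, the long RNA antisense to Dlx6, was likewise not proportional to Dlx6. It had 18.1 UMIs per Dlx6 UMI in Tcf4 cKO and 14.6 in WT in cluster 5. In cluster 8, led by Nxph1, it had 1.65 and 1.81. The ratio was highest in cluster 33, at 29.0 and 19.4 per Dlx6 UMI, where Dlx6 had only 4 and 14 UMIs.

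**Figure D3:**
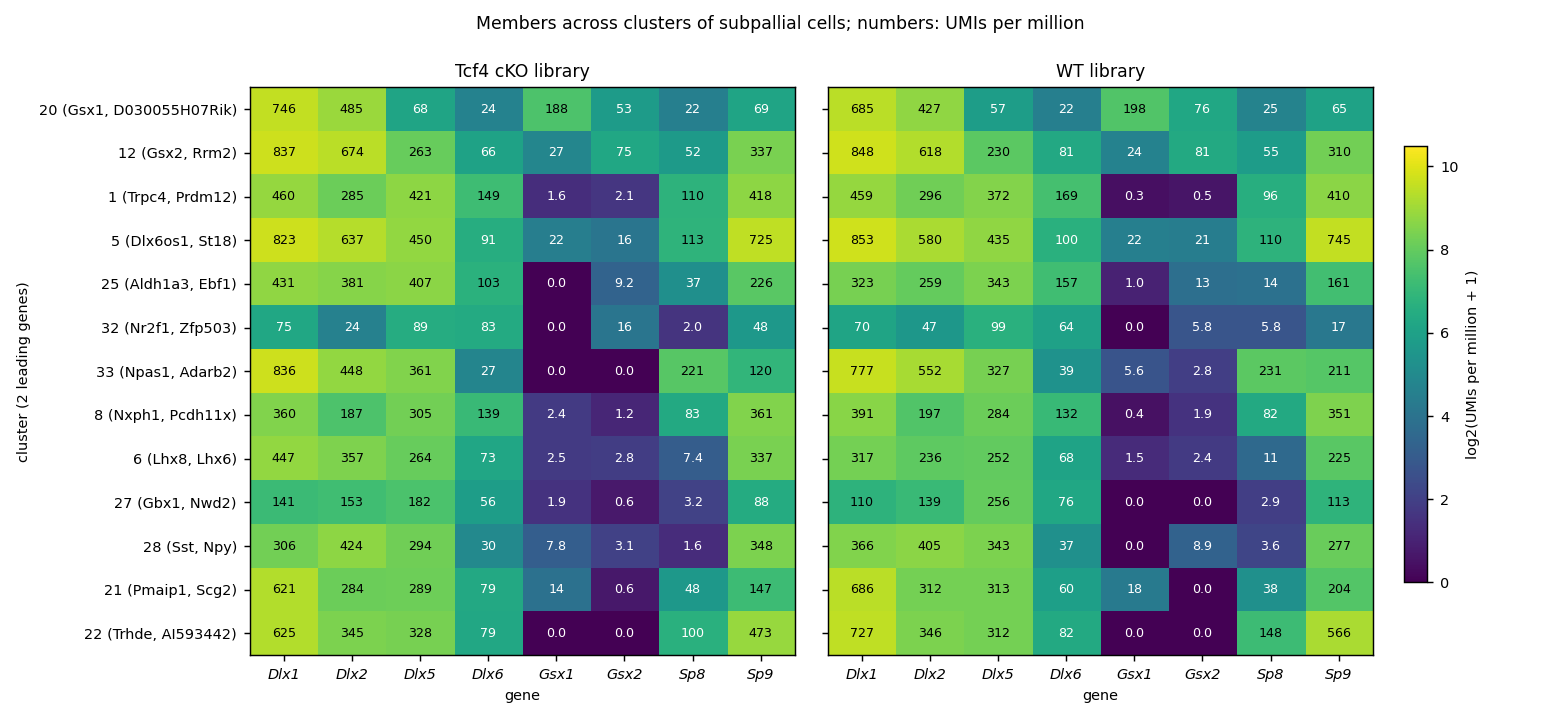
Level of each member in CPM (numbers; colour, log2 of the level plus 1) in the 13 clusters of subpallial cells, Tcf4 cKO on the left and WT on the right. Gsx1 stood out in cluster 20, Sp8 in cluster 33 with 221 and 231, and the row of cluster 32, with 71 Tcf4 cKO and 22 WT cells, was the lowest for Dlx1.

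Clusters 21 (led by Pmaip1, Scg2 and Lhx5) and 22 (led by Trhde, AI593442 and Calb2) remained unnamed because Lhx5 and Calb2, which mark Cajal-Retzius cells, were among their leading genes and no GABAergic marker was, but both were rich in Dlx genes. Dlx1 was at 621 CPM in Tcf4 cKO and 686 CPM in WT in cluster 21, and at 625 and 727 CPM in cluster 22. Gsx1 was found in cluster 21 at 13.9 and 18.4 CPM and had no UMI in cluster 22 of either library.

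Across 36 clusters of both libraries together with at least 50 cells, the 3 genes most like each Dlx member by Pearson correlation of log2 levels were other members, Dlx6os1 or Gm14204. Dlx1 and Dlx2 had r = 0.99 with each other, and Dlx5 had r = 0.98 with Dlx6os1, 0.97 with Gm14204 and 0.96 with Sp9. Sp9 had r = 0.96 with Dlx5 and with Dlx2. Gsx1 was most like G0s2 (r = 0.79), Helt (0.75) and Gsx2 (0.72), and Gsx2 most like Helt (0.77), Chic2 (0.76) and D030055H07Rik (0.75). Sp8 stood apart from the rest, closest to the neural progenitor genes Sox1 (0.72), Zic5 (0.70) and Sox2 (0.70). These correlations describe clusters that share libraries and depth, and they carry no test.

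Outside the subpallial progenitor and GABAergic classes Sp8 was the most widely found member. Only 54.7% of its UMIs in Tcf4 cKO and 51.3% in WT came from these classes, where the other members had between 77.6% and 87.1%. The unnamed clusters 21 and 22, rich in Dlx genes, held a further 8.89% and 11.9%. Sp8 was at 29.6 CPM in Tcf4 cKO and 33.5 CPM in WT cycling radial glia, at 26.4 and 27.6 CPM in astroglia, and at 46.0 and 38.2 CPM in cluster 15, which was led by Fgf17 and Fgf8. Not all of these cells were clearly pallial. With both libraries together, cluster 15 had Six3 at 462 CPM, Nkx2-1 at 311 CPM and Emx1 at 17.9 CPM. The astroglial clusters 13 and 16 had Six3 at 303 and 272 CPM. Sp8 is known to act with Fgf8 in rostral patterning of the telencephalon. In glutamatergic neurons it was at 2.41 and 2.004 CPM.

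In cycling radial glia the mixture of members differed from that of free RNA, which was read from droplets without cells. In glutamatergic neurons it was closer to that of free RNA. Sp8 made up 46.1% (42.0 to 50.2) of the UMIs of all 8 members in Tcf4 cKO and 58.0% (53.3 to 62.7) in WT cycling radial glia, against 8.23% (6.95 to 9.66) and 5.05% (3.83 to 6.52) in the droplets. In glutamatergic neurons Sp8 made up 8.60% (6.41 to 11.2) and 8.29% (5.88 to 11.3). Dlx1 made up 29.6% (25.8 to 33.5) of the member UMIs in Tcf4 cKO and 29.0% (24.8 to 33.6) in WT glutamatergic neurons, against 23.3% (21.3 to 25.4) and 30.9% (28.1 to 33.7) in the droplets. Levels in these neurons were low, at 8.28 and 7.01 CPM for Dlx1, with 1.37 and 3.09 CPM estimated from free RNA.

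The Gsx genes had a smaller presence outside the subpallial progenitor and GABAergic classes. Gsx2 was at 14.2 CPM in Tcf4 cKO and 10.4 CPM in WT cells of the astroglial cluster 13, and at 12.2 and 10.7 CPM in cluster 16, against 0.238 and 0.926 CPM in the astroglial cluster 11. Gsx1 was at 63.4 CPM in Tcf4 cKO and 47.6 CPM in WT oligodendrocyte progenitors, from 27 and 23 UMIs in 40 and 38 cells. Gsx2 was at 14.1 and 18.6 CPM in the same cells, from 6 and 9 UMIs, and Sp9 at 32.9 and 22.8 CPM, from 14 and 11 UMIs. These cells were fewer than 50 in each library and were named after their values were seen.

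Between genotypes, none of the 8 members passed 1.5-fold in subpallial progenitors, where 0.606% of 11552 genes did, and none in GABAergic neurons, where 0.629% of 13518 genes did. The median log2 ratio of Tcf4 cKO over WT was -0.01 for the members and -0.01 for all genes in progenitors, and -0.10 and 0.01 in GABAergic neurons. In progenitors Dlx2 had a ratio of 1.11 (1.05 to 1.16), Dlx5 of 1.16 (1.06 to 1.27) and Sp9 of 1.09 (1.01 to 1.18). Gsx2 was lower in Tcf4 cKO, with a ratio of 0.850 (0.735 to 0.981), while Dlx1 had 1.02 (0.977 to 1.06), Gsx1 0.968 (0.847 to 1.11), Sp8 0.935 (0.773 to 1.13) and Dlx6 0.859 (0.728 to 1.01).

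In GABAergic neurons 7 of the 8 ratios lay between 0.865 and 0.971. Dlx1 had 0.902 (0.875 to 0.930), Dlx6 0.865 (0.814 to 0.919) and Sp9 0.944 (0.913 to 0.976). Gsx2, with only 83 UMIs in Tcf4 cKO and 119 in WT, had the lowest ratio at 0.646 (0.482 to 0.862), which was not past 1.5-fold once the pseudocount was added. The intervals of Dlx2 and Sp9 were above 1 in progenitors and below 1 in GABAergic neurons. The intervals do not cover differences between embryos, and embryo, litter and dissection cannot be told apart from genotype.

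Markers of other cells moved with the genotype as well. The 5 red blood cell markers summed to 145 CPM in Tcf4 cKO and 3874 CPM in WT progenitors, and to 2303 and 3659 CPM in GABAergic neurons, with 1 marker at 0 in Tcf4 cKO progenitors. The 10 glutamatergic markers summed to 533 CPM in Tcf4 cKO and 450 CPM in WT GABAergic neurons, and each of the 10 was higher in Tcf4 cKO. Their part in the member ratios was not tested.

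The make-up of the GABAergic class moved with the genotype. Cluster 6, led by Lhx8 and Lhx6, was 20.98% of Tcf4 cKO and 13.2% of WT GABAergic neurons, and cluster 27 was 6.64% and 1.63%, while cluster 5 was 14.2% and 21.8% and cluster 25, led by Aldh1a3 and Ebf1, 6.31% and 11.9%. When all 9 clusters were weighted equally, 4 ratios whose intervals had been clear of 1 changed direction. Dlx1 was then at 1.06, Dlx2 at 1.07, Sp8 at 1.04 and Sp9 at 1.06.

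Within clusters the ratios reached further from 1. In cluster 6 Dlx1 was at 447 CPM in Tcf4 cKO and 317 CPM in WT, a ratio of 1.41 (1.29 to 1.55), and Dlx2 was at 357 and 236 CPM, a ratio of 1.51 (1.36 to 1.69). Sp9 was at 337 and 225 CPM there, a ratio of 1.498 (1.34 to 1.67), while Dlx5 had 1.05 (0.937 to 1.17). In cluster 25 Sp8 was at 36.9 CPM in Tcf4 cKO and 14.3 CPM in WT, a ratio of 2.58 (1.53 to 4.396), from 36 and 28 UMIs. Dlx2 had 1.47 (1.28 to 1.69), Dlx6os1 1.67 (1.52 to 1.83) and Dlx6 0.661 (0.523 to 0.830) in the same cluster. In the 10 clusters of subpallial cells with at least 50 cells per library, the interval of Dlx2 was above 1 in 5 and below 1 in 0. That of Dlx5 was above 1 in 3 and below in 0, that of Dlx1 above in 3 and below in 3, and that of Sp9 above in 3 and below in 2. That of Dlx6 was above in 1 and below in 3, that of Sp8 above in 2 and below in 1, that of Gsx2 above in 1 and below in 1, and that of Gsx1 spanned 1 in all 10.

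**Figure D4:**
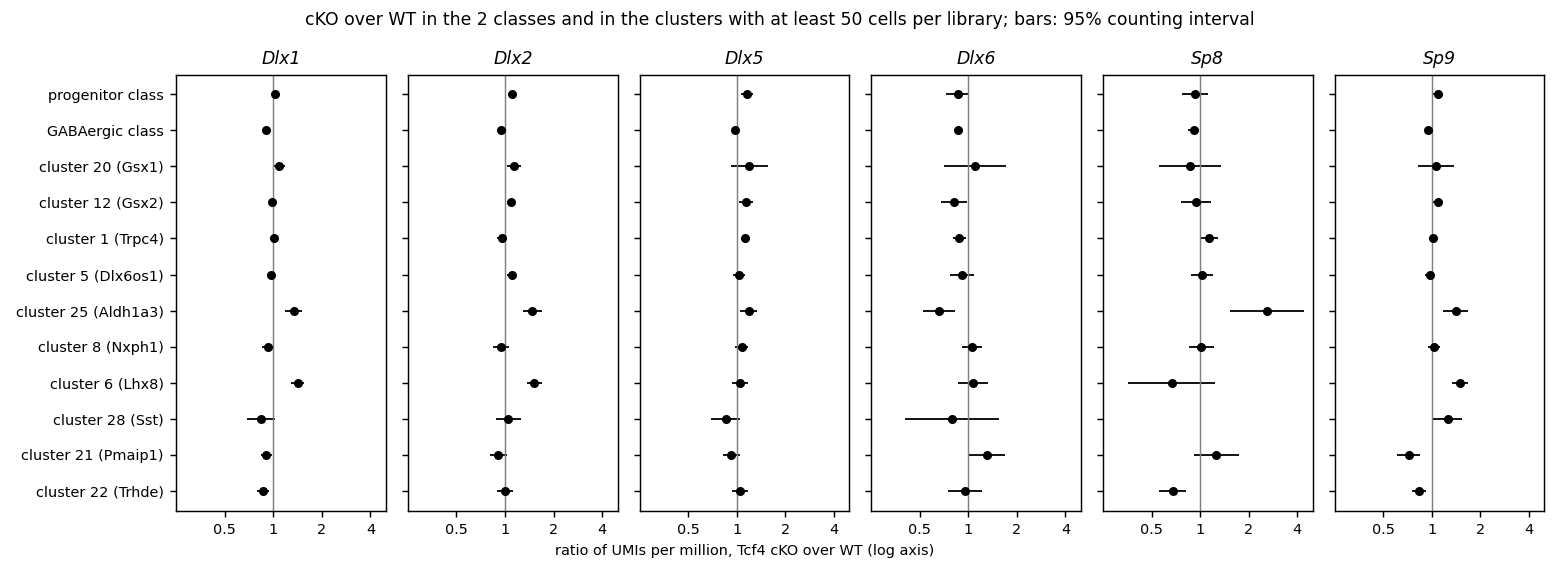
Ratio of Tcf4 cKO over WT (log axis; the line marks 1) for 6 members in the 2 classes and in clusters with at least 50 cells per library, with 95% counting intervals, for at least 20 UMIs. The class values sat near 1, while Dlx1, Dlx2 and Sp9 were higher in Tcf4 cKO in clusters 6 and 25, with Dlx2 at 1.51 and 1.47.

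Other genes of these lineages and pallial counterparts, on 7 lists of 96 genes, showed what surrounded the members. In GABAergic neurons 4 of the 90 listed genes with at least 20 UMIs were past 1.5-fold higher in Tcf4 cKO, where 0.488% of all genes were, and 7 were past 1.5-fold lower, where 0.141% were. Their median log2 ratio was -0.01. The 4 higher genes, from the lists of upstream genes and of interneuron factors, are known from the medial ganglionic eminence.

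Nkx2-1, the patterning factor gene of that eminence, was at 143 CPM in Tcf4 cKO and 65.2 CPM in WT GABAergic neurons, a ratio of 2.19 (2.04 to 2.35). Lhx8, a factor gene of basal forebrain neurons, had a ratio of 1.64 (1.55 to 1.73), Lhx6 of 1.59 (1.48 to 1.71) and Sox6, an interneuron maturation factor gene, of 1.58 (1.44 to 1.74). Nkx2-1, Lhx8 and Lhx6 were among the 10 leading genes of cluster 6, which was 20.98% of Tcf4 cKO and 13.2% of WT GABAergic neurons. The part of this cluster share in their ratios was not tested. Penk, at 2.40 and 1.10 CPM, and Neurod1, at 4.48 and 2.08 CPM, had ratios of 2.19 (1.26 to 3.97) and 2.16 (1.45 to 3.29) but were not past the fold with the pseudocount.

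Of the 7 lower genes 4 were among the 19 striatal and septal genes tested. Tac1, which encodes substance P of striatal projection neurons, was at 12.01 CPM in Tcf4 cKO and 79.9 CPM in WT. The factor gene Ebf1 was at 25.2 and 119 CPM, the retinoic acid receptor gene Rarb at 1.07 and 6.46 CPM, and Zfp503 at 19.7 and 33.2 CPM. The other lower genes were Pbx3, Calb2 and Cck. Ebf1, Zfp503 and Pbx3 were among the 10 leading genes of cluster 25, which was 6.31% of Tcf4 cKO and 11.9% of WT GABAergic neurons. The part of this cluster share in their ratios was not tested. None of the 14 migration genes, the 5 genes of GABA synthesis and release or the 9 pallial counterparts tested was past 1.5-fold.

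In progenitors 3 of 80 listed genes were past 1.5-fold higher, where 0.242% of all genes were, and 1 was lower, where 0.364% were. Nkx2-1 was at 137 CPM in Tcf4 cKO and 81.3 CPM in WT, Lhx8 at 60.9 and 26.0 CPM and Lhx6 at 19.6 and 11.0 CPM, while the semaphorin receptor gene Nrp2 was at 9.90 and 18.7 CPM. Genotype, embryo and dissection cannot be told apart in these differences.

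Among pallial cells, the domain of Emx1-driven Cre, Dlx5 was higher in the Tcf4 cKO library. In intermediate progenitors, the Eomes-rich neuron precursors of the pallium, it was at 15.2 CPM in Tcf4 cKO and 5.97 CPM in WT, a ratio of 2.55 (1.88 to 3.51). In cycling radial glia it was at 8.56 and 3.40 CPM, a ratio of 2.51 (1.60 to 4.08). It was 1 of 6 members with at least 20 UMIs past 1.5-fold in each class, where 1.47% of 12309 and 1.21% of 12260 genes were. Dlx2 had a ratio of 1.48 (1.02 to 2.17) in cycling radial glia, and 0.945 with clusters drawn at resolution 0.5. The Dlx5 ratio in cycling radial glia depended on how the cells were chosen, at 1.04 with clusters drawn at resolution 0.5 and 1.54 with doublet calls kept, whereas in intermediate progenitors it was 1.97 and 2.22. At resolution 0.5 subpallial progenitors merged with radial glia, so the radial glia of that setting need not be the same cells. In the main setting subpallial progenitors had Dlx5 at 195 CPM in Tcf4 cKO and 168 CPM in WT. Dlx1 had ratios of 1.31 (0.995 to 1.72) and 1.16 (0.817 to 1.66) and Sp9 of 1.21 (0.829 to 1.78) and 1.39 (0.908 to 2.14) in the same classes. Dlx6os1, the antisense gene of Dlx6, was also higher in Tcf4 cKO in cycling radial glia, with 111 UMIs against 35 in WT. Its ratio was 2.62 (1.78 to 3.96) there and 1.35 (1.02 to 1.80) in intermediate progenitors. The difference in cycling radial glia was thus not limited to Dlx5.

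Split by cluster, Dlx5 had the same direction in each cluster that makes up these classes and in the unnamed cluster 9. These clusters come from the same pair of libraries and are not replicates. Among intermediate progenitors the ratio of Dlx5 was 3.597 (2.23 to 6.04) for cluster 0, where Dlx5 was at 13.5 CPM in Tcf4 cKO and 3.76 CPM in WT, and 2.21 (1.43 to 3.43) for cluster 18, at 19.5 and 8.83 CPM. Among cycling radial glia it was 2.43 (1.36 to 4.60) for cluster 10 and 2.64 (1.27 to 6.03) for cluster 19. Cluster 9, led by Wnt8b, a gene of the medial pallium, had 1.96 (1.07 to 3.76).

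In some of these clusters other members were higher in Tcf4 cKO too. In cluster 18 Dlx1 had a ratio of 2.23 (1.59 to 3.15), Dlx2 of 1.83 (1.22 to 2.76) and Sp9 of 2.02 (1.24 to 3.30). In cluster 19 these ratios were 1.85 (1.02 to 3.49), 3.80 (1.89 to 8.44) and 3.22 (1.58 to 7.24), and in cluster 9 Dlx2 had 2.55 (1.26 to 5.58). In clusters 0 and 10, where Dlx5 was higher as well, Dlx1 had 0.812 and 0.870, Dlx2 had 1.45 and 0.829 and Sp9 had 0.810 and 0.706, each with an interval that spanned 1.

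Dlx5 was not past 1.5-fold in astroglia, in glutamatergic neurons or in the class of pallial neurons or intermediate progenitors. In pallial neurons or intermediate progenitors, a class that the markers could not divide, 1 of 5 members was past 1.5-fold, where 3.28% of genes were. That member was Dlx1, which was lower, at 6.62 CPM in Tcf4 cKO and 13.0 CPM in WT, a ratio of 0.509 (0.330 to 0.783). It was 0.818 with the UMI minimum doubled. In WT 2 of 412 cells held 42.4% of the Dlx UMIs of this class, and in Tcf4 cKO 1 of 947 cells held 4.65%. In cells with no UMI of the other Dlx genes, Sp9 or the GABA genes, Dlx1 was at 5.91 CPM in Tcf4 cKO and 5.98 CPM in WT, a ratio of 0.988 (0.536 to 1.88). In astroglia 0 of 6 members were past 1.5-fold, where 1.11% of genes were, although Sp9 was at 7.05 and 3.28 CPM, a ratio of 2.15 (1.36 to 3.47) without the pseudocount. That ratio was 1.04 at resolution 0.5, where subpallial progenitors merged with radial glia, 1.21 with doublet calls kept and 4.25 with free RNA subtracted. The astroglial class was not clearly pallial throughout. With both libraries together, clusters 13 and 16 had the subpallial marker gene Six3 at 303 and 272 CPM and Emx1 at 27.6 and 2.59 CPM. Cluster 11 had them at 5.65 and 60.8 CPM. Cluster 11 held 402 Tcf4 cKO and 268 WT cells, cluster 13 held 242 and 376, and cluster 16 held 311 and 263. In glutamatergic neurons 0 of 6 members were past 1.5-fold, where 3.42% of genes were. Dlx5 had a ratio of 1.35 (0.999 to 1.84) there, with 5.57 CPM in Tcf4 cKO and 4.12 CPM in WT. That class was made of different clusters in each library, with clusters 2 and 4 almost all Tcf4 cKO and clusters 3 and 17 almost all WT.

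Part of the Dlx signal in these classes came from a few cells. They were picked by their unthinned Dlx UMIs, a choice that by itself favours deep cells and a large share of these UMIs. In Tcf4 cKO 11 of 990 intermediate progenitors and in WT 8 of 929 had at least 5 UMIs of the Dlx members. They held 43.4% and 50.6% of the Dlx UMIs of the class, had median depths of 18141 and 16052 UMIs, against 8006 and 10284 UMIs for the rest, and had Gad2 at 68.4 and 60.0 CPM, against 6.35 and 4.30 CPM. In cycling radial glia there were 14 and 5 such cells, with Gad2 at 144 and 74.3 CPM, against 4.80 and 2.26 CPM. Doublets left among these cells cannot be told apart from single cells here.

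Dlx5 was also compared in cells of these 2 classes that had no UMI of any other gene of this kind, which were chosen after the values were seen. Among intermediate progenitors with no UMI of Dlx1, Dlx2, Dlx6, Sp9, Dlx6os1, Gad1, Gad2 or Slc32a1, Dlx5 was at 11.3 CPM in 768 Tcf4 cKO cells and 2.74 CPM in 735 WT cells, a ratio of 4.13 (2.54 to 6.98). It was found in 70 (9.11%) of the Tcf4 cKO and 20 (2.72%) of the WT cells, and after thinning to 3000 UMIs in 2.73% (1.70 to 4.15) and 1.09% (0.471 to 2.13), with overlapping intervals. In cycling radial glia chosen the same way it was at 6.21 and 1.78 CPM, a ratio of 3.48 (1.76 to 7.50). In glutamatergic neurons it was at 3.98 and 1.82 CPM, a ratio of 2.19 (1.35 to 3.64), and in pallial neurons or intermediate progenitors the ratio was 1.09 (0.502 to 2.499).

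By cluster these cells gave ratios of 4.49 (2.44 to 8.92) in cluster 0, 3.17 (1.30 to 8.21) in cluster 18 and 4.38 (1.79 to 12.9) in cluster 10. In clusters 19 and 9 the intervals spanned 1, with ratios of 2.39 (0.800 to 8.56) and 2.29 (0.965 to 6.003).

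Cells chosen this way were also compared for the other genes. Over cycling radial glia, intermediate progenitors and cluster 9 together, Dlx5 had 137 UMIs in 1598 Tcf4 cKO cells and 41 UMIs in 1394 WT cells, a ratio of 3.46 (2.43 to 5.04). After thinning it was found in 2.19% (1.53 to 3.03) and 0.861% (0.446 to 1.499) of these cells. Dlx1 had 1.13 (0.815 to 1.57), Dlx2 1.45 (0.935 to 2.27) and Sp9 1.03 (0.671 to 1.58), each in cells with none of the other genes. In astroglia chosen this way Dlx1 was at 7.26 CPM in Tcf4 cKO and 3.56 CPM in WT, a ratio of 2.04 (1.22 to 3.46), and Dlx5 had 1.77 (0.962 to 3.32) and Sp9 1.81 (0.913 to 3.72). In cluster 9 Dlx2 had 2.96 (0.914 to 12.5), from 13 and 4 UMIs. Free RNA contributed an estimated 1.15 CPM of Dlx5 in Tcf4 cKO and 1.75 CPM in WT. The WT levels of Dlx5 in the chosen intermediate progenitors and cycling radial glia were 2.74 and 1.78 CPM, not far above that estimate. Their ratios thus rest on a low WT level. The levels are low, and these groups of cells were chosen after their values were seen.

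**Figure D5:**
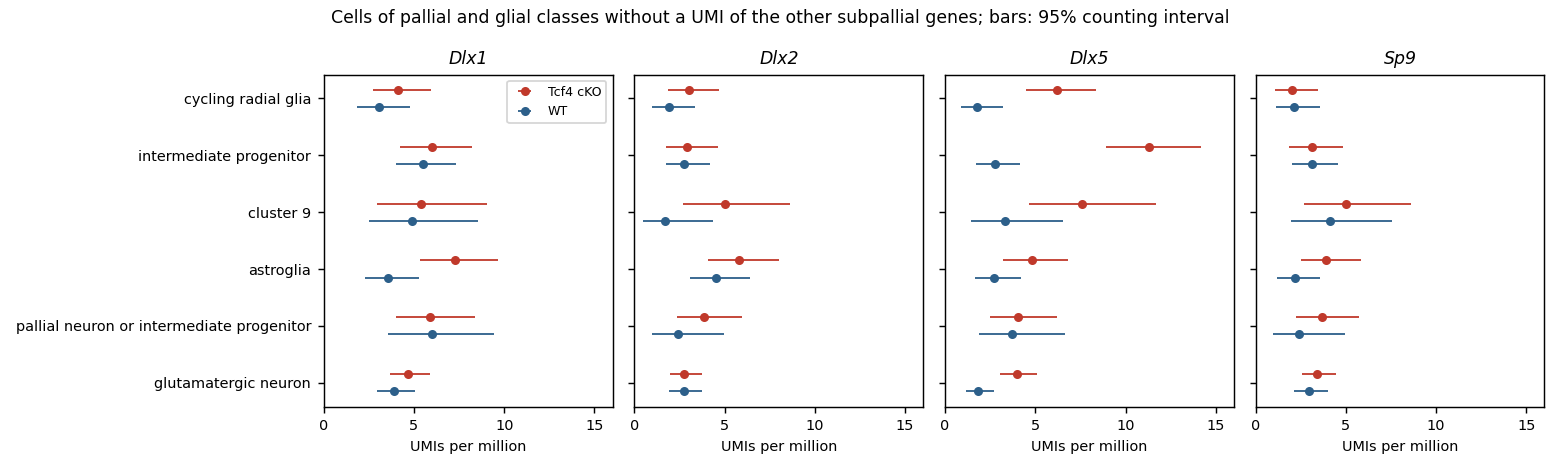
Level of Dlx1, Dlx2, Dlx5 and Sp9 in CPM in cells of 6 groups that had no UMI of the other subpallial genes, Tcf4 cKO above WT, with 95% counting intervals. Dlx5 was higher in Tcf4 cKO in intermediate progenitors, at 11.3 against 2.74, and in cycling radial glia, while the intervals of Dlx1, Dlx2 and Sp9 overlapped between genotypes in both groups.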

How the data were processed

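Single-cell RNA of 2 libraries was analysed, 1 Tcf4 cKO and 1 WT. The authors deposited raw UMI counts of every gene in every droplet. The count tables came from Cell Ranger 7.1.0 per the file headers, although the submitters' processing notes give Cell Ranger 2.1.1 with mm10. Annotation release, intron setting and strand setting are not given in the sources used here. Cells and empty droplets together held 121321247 UMIs in Tcf4 cKO and 116998498 UMIs in WT.

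Barcodes with at least 3341 UMIs in Tcf4 cKO and 3348 in WT were taken as cells, from percentile 99 among the top 5000 barcodes, divided by 10. A cell also needed 500 genes or more, with mitochondrial UMIs at 10% or less. Scrublet in scanpy 1.11.5, at an expected rate of 6%, called 544 (5.10%) doublets in Tcf4 cKO and 327 (3.65%) in WT, which were removed. Leiden clustering of the joined libraries (igraph 0.11.9, resolution 1, 15 neighbours) used 30 principal components of 2000 variable genes. The 8 members, Dlx1as, Dlx6os1, Tcf4 and genes of the sex chromosomes, mitochondria, ribosome and haemoglobins were barred from those genes.

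To name a cluster, a marker had to occur in 20% of its cells at 1.5-fold the level elsewhere. A name needed at least 3 such markers and a sum of log2 folds 1.5 times that of the next type, and a cluster stayed unnamed where another type had more markers among its 10 leading genes or, for the rarer types, where none of its own was among them. Subpallial progenitors were clusters with the subpallial identity markers leading and neuron genes low. These naming rules were settled after the clusters were seen. Unnamed clusters held 1307 (12.9%) Tcf4 cKO and 1553 (18.0%) WT cells. The members, gene lists and markers were chosen with earlier results of these data known.

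UMIs were summed per class and library, and no p-value was computed. At 95%, levels in CPM have exact Poisson intervals, ratios exact conditional binomial ones and shares Clopper-Pearson ones. Counts past 1.5-fold used log2 of CPM plus 5 and genes with at least 20 UMIs. The profile of free RNA came from droplets with 10 to 100 UMIs. Haemoglobin scaled it to 1.18% of UMIs in Tcf4 cKO and 2.23% in WT neurons, leaving out cells above 0.1% haemoglobin, a bound chosen with the values in view. The genes named are the members, their antisense genes, the 3 genes most like each, the 3 leading genes of a cluster, and listed genes of highest or lowest ratio or most UMIs. Other listed genes past 1.5-fold, and further leading genes, were named after their values were seen. The calculations were tested on simulated counts. Alternatives were other filters, resolutions, gates, pseudocounts, bin numbers, thinning and free RNA subtraction. One further definition of progenitors, chosen after seeing the data, is not reported here.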

Additional observations from a re-analysis of the deposited data

Results flagged for a closer look

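For 5 members the ratio of Tcf4 cKO over WT lay above 1 in one cluster of subpallial cells and below 1 in another, with counting intervals clear of 1 on both sides. These differences between clusters were not tested, since each genotype had 1 library, and with 8 members over 10 clusters some intervals miss 1 by chance. Dlx1 had 1.41 in cluster 6 and 0.860 in cluster 22. Sp9 had 1.498 in cluster 6 and 0.720 in cluster 21. Sp8 had 2.58 in cluster 25 and 0.676 in cluster 22. Dlx6 had 1.31 in cluster 21 and 0.661 in cluster 25. Gsx2 had 4.16 in cluster 1, with an interval from 1.10 to 23.2 and levels of 2.15 CPM in Tcf4 cKO and 0.517 CPM in WT, from 11 and 3 UMIs, and 0.702 in cluster 20.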

How the results depend on the processing

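The counts of 0 members past 1.5-fold in progenitors and in GABAergic neurons stayed at 0, and the count of 4 members higher in neurons than in progenitors stayed at 4, under each alternative given here that had a value. At resolution 0.5 subpallial progenitors merged with radial glia, so that setting gave no value for them and no comparison with neurons. Of 497 ratios of a member recomputed in a class, 442 stayed within the main counting interval and 49 left it. The other 6 had a main interval clear of 1 and changed direction. Where the main interval spanned 1, a ratio that crossed 1 was not counted as a change of direction. Dlx5 in GABAergic neurons, for example, ranged from 0.949 to 1.05. With shared clusters weighted equally the GABAergic ratios were 1.06 for Dlx1, 1.07 for Dlx2, 1.04 for Sp8 and 1.06 for Sp9. With neurons gated on single cells by their GABA synthesis and release genes Dlx2 had 1.01 in GABAergic neurons. Adding clusters 21 and 22 to the neurons was chosen after seeing the data. In cycling radial glia at resolution 0.5 Dlx2 had 0.945 and Dlx5 1.04. With doublet calls kept Dlx5 had 1.54 there, and with free RNA subtracted 4.45. The cause of these shifts was not tested. Dlx5 in intermediate progenitors stayed between 1.97 and 3.31. No paired analysis was possible because each genotype had 1 library, so no replicate could be left out either. Levels under about 1 CPM rest on a few UMIs.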
